A study of Mus musculus with 3 samples.

Results

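Interferon-stimulated genes are the genes that cells switch on when interferon binds its receptors, and 45 of them are described here. The members were given as a list of symbols and were found by symbol, through the GENCODE M21 annotation, in the larger of the 2 gene tables deposited for each library. All 45 were found, out of 55536 annotated genes and 22028 protein-coding genes. The data are RNA-seq of polyadenylated RNA from regulatory T cells (Treg cells) labelled as activated. Treg cells are T cells that hold other immune cells in check and need the transcription factor Foxp3, and here they were primary cells of 1 male mouse aged 9 weeks. The technical libraries 1, 2 and 3 all came from 1 biosample and form the only group, with no allele or added agent named. The labels do not give the strain of the mouse or how the cells were sorted and activated. No condition was therefore compared, and the values are levels, ratios between genes and the spread between libraries.

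In outline, type I interferons signal through the Ifnar1 and Ifnar2 receptor chains and the kinases Jak1 and Tyk2 to a complex that holds Stat2 and Irf9 and binds a promoter element called the interferon-stimulated response element. Interferon gamma signals through Ifngr1 and Ifngr2 and acts on a different element called the gamma-activated site. The genes that follow encode sensors of foreign nucleic acid, enzymes that block viral replication, membrane proteins that hinder entry or release, and enzymes that tune the response itself. T cells hold a basal level of many of these transcripts and interferon signals also shape how T cells divide and survive.

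The core of the response element is GAAA, any 2 bases and GAAA, which was searched on both strands of the promoter windows of RefSeq (GRCm38.p6, the assembly that mm10 names). Each window holds 300 bases, from 250 before to 50 after a transcription start, and 31 of the 45 members had one. The stretches shown here are those of 9 members with a match, given 5′ to 3′ on the strand of the gene. They were chosen to show the overlapping repeats in Isg15 and Bst2, the related Ifit promoters and a match from each of several other families. Capitals mark the matched bases, and a match on the other strand reads TTTC, 2 bases and TTTC.
Isg15: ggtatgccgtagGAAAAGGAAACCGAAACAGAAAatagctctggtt
Ifit1: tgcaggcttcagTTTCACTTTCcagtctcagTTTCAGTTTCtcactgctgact
Ifit3: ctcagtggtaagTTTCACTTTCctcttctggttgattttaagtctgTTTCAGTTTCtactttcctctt
Ifit3b: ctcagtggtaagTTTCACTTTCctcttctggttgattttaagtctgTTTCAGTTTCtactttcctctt
Bst2: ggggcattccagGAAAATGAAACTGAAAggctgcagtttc
Oas1a: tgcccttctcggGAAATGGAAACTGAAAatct
Oas3: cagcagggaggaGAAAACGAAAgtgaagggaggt
Irgm2: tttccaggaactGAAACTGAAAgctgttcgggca
Rsad2: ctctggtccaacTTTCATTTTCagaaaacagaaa

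These stretches lie at chr4:156200863-156200908 on the minus strand for Isg15 and chr19:34640773-34640825 on the plus strand for Ifit1. Those of Ifit3 and Ifit3b lie at chr19:34583361-34583428 and chr19:34607757-34607824, both on the plus strand. Bst2 is shown at chr8:71537575-71537614 (minus strand), Oas1a at chr5:120907526-120907557 (minus strand) and Oas3 at chr5:120777713-120777746 (minus strand). Irgm2 is shown at chr11:58214901-58214934 (plus strand) and Rsad2 at chr12:26456551-26456584 (minus strand).

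The motif was present in 15 of the 31 members with a window (48.4%), against 1079 of the 27025 genes in the RefSeq table (3.99%). These members were Bst2, Ddx58, Eif2ak2, Ifi203, Ifih1, Ifit1, Ifit3, Ifit3b, Ifitm2, Ifitm3, Irgm2, Isg15, Oas1a, Oas3 and Rsad2. At least 2 matches in 1 window were found in 7 members, against 72 genes of the whole table (0.266%). Isg15 held 3 overlapping matches, the first beginning 78 bases before the start. The pairs of matches in Bst2 and Oas1a also overlapped, whereas those in Ifit1, Ifit3 and Ifit3b stood apart. The shown stretches of Ifit3 and Ifit3b are identical, and their windows, aligned at the first match without gaps, shared 201 of 268 bases (75%). The gamma-activated site, searched as TTC, any 3 bases and GAA, reads the same on both strands and was present in 10 of the 31 members (32.3%), against 9.55% of genes.

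Members with the motif were not the more abundant ones. Their median was 46.1 TPM (a transcript's share of all transcripts, scaled to a fixed total and corrected for transcript length), against 84.9 TPM for the 16 members whose window held none. The 14 members without a window in the table had a median of 67.4 TPM and include Ifi27l2a, the highest member of all. These are descriptions of letters in fixed windows, and binding was not measured.

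All 45 members were detected, which means that every library gave them 1 TPM or more. Of protein-coding genes 47.3% were detected, and of annotated genes 22.7%. The median member level, taken within each library, was 56.1 ± 0.486 TPM (mean and SD over the 3 libraries). Taken over the genes' mean levels it was 58.2 TPM. The same median was 29.2 TPM for detected protein-coding genes and 0.808 TPM for all protein-coding genes. A mean of at least 100 TPM was reached by 15 members, 19 lay between 20 and 100 TPM, 3 between 10 and 20 TPM and 8 below 10 TPM. Together the members summed to 7834 ± 78.1 TPM and held 0.678% ± 0.00262 of counts. Ifi27l2a alone gave 32.4% of the summed TPM, and Ifi27l2a, Samhd1 and Sp100 together gave 54.2%. Every SD and n = 3 in the text is over libraries of the same biosample, so it is technical and says nothing about mice, and p-values measure only the spread between these libraries. In RNA from bulk cells, fewer cells with a transcript and less transcript per cell cannot be told apart.

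**Figure D1:**
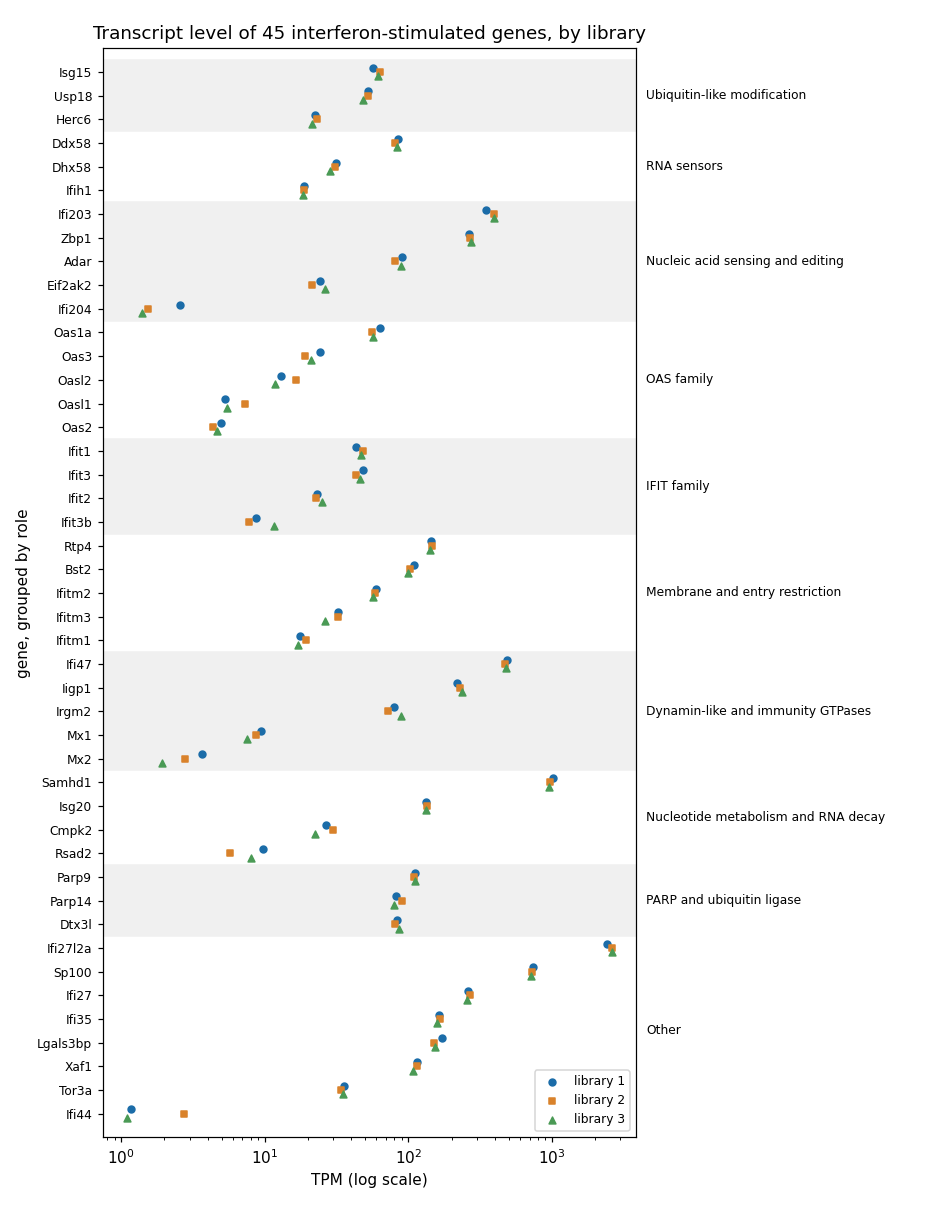
Level of each of the 45 members in libraries 1, 2 and 3 (TPM, log axis), grouped by role, with 1 symbol per library. The 3 symbols of most genes nearly coincide, whereas levels span from 1.67 TPM (Ifi44) to 2539 TPM (Ifi27l2a), and the symbols separate most in genes below 10 TPM.

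The plot of levels by role shows that the members differed among themselves far more than the libraries did. Highest over lowest, the means spanned 1524-fold, while the median coefficient of variation over libraries was 5.55%, with 20 members under 5% and 5 over 20%. When the members were sorted by mean TPM, 15 of 44 neighbouring pairs were apart, meaning that the log2 ratio had 1 sign in all 3 libraries and a mean over 2 SD. The other 29 pairs of neighbours did not differ beyond their spread. Near the top each step from Ifi27l2a to Samhd1, Sp100, Ifi47, Ifi203 and Zbp1 was apart, but Zbp1 and Ifi27 were not. The places of Ifi203, Zbp1 and Ifi27 rest on transcripts of all classes. In protein-coding transcripts only, Ifi203 (60.5 TPM on average) and Ifi27 (114 TPM) lay below Zbp1 (246 TPM). Adar, Parp14, Dtx3l, Ddx58 and Irgm2 formed a run in which no neighbours were apart, and so did the genes from Tor3a through Ifitm3, Dhx58, Cmpk2, Eif2ak2, Ifit2, Herc6, Oas3 and Ifih1 to Ifitm1. An exact two-sided sign-flip test over 3 libraries cannot go below 0.25, so these ratios carry no p-value.

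The genes of Isg15 conjugation were all at moderate levels. Isg15, a ubiquitin-like protein that is attached to other proteins, stood at 56.5, 63.5 and 61.0 TPM in libraries 1, 2 and 3. Usp18, the protease that removes Isg15 and also restrains the type I receptor, stood at 52.3, 52.4 and 48.0 TPM. Herc6, the main Isg15 ligase in mouse, was lowest at 22.4, 23.0 and 21.4 TPM. In TPM, Isg15 was lowest in library 1 while Usp18 and Herc6 were lowest in library 3. The Isg15 to Usp18 ratio was 0.24 ± 0.12 on the log2 scale, just over 2 SD, and without library 2 or library 3 it no longer exceeded the spread (0.23 and 0.19). Its direction turned in CPM (counts scaled to the library total, with no length correction), at -0.88. It also turned in the counts of the smaller gene table, which have no length correction either, at -0.84. Both ratios were beyond the spread.

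Among the cytosolic RNA sensors, Ddx58 was well above its relatives. Ddx58, which encodes RIG-I and detects short RNA with a free phosphate end, stood at 85.2, 81.2 and 83.1 TPM. Dhx58, a related helicase without signalling domains that tunes the other sensors, stood at 31.3, 31.1 and 28.3 TPM. Ifih1, the sensor of long double-stranded RNA, was lowest at 18.8, 18.8 and 18.5 TPM. None of the 3 ranges overlapped another. On the log2 scale Ifih1 lay below Ddx58 by a ratio of -2.15 ± 0.04 and Dhx58 by -1.46 ± 0.09. With protein-coding transcripts only these ratios were smaller, -1.90 and -0.90, both beyond the spread. Ifih1 had the lowest coefficient of variation of all members, 0.860%.

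The genes of nucleic acid sensing and editing covered a 207-fold range in TPM of the whole gene. Ifi203, which encodes a DNA-binding protein of the PYHIN family, stood at 345, 396.5 and 398 TPM, with library 1 below the others. Ifi204, a gene of the same family, stood at 2.57, 1.53 and 1.40 TPM, with library 1 above the others. The ratio of Ifi203 to Ifi204 was 7.75 ± 0.59 on the log2 scale, the largest of the 26 ratios computed. It was smaller with protein-coding transcripts only (5.61) and in counts of the smaller gene table (5.84), both beyond the spread. Zbp1, a sensor of Z-form nucleic acid that can start necroptosis, stood at 265, 268 and 275 TPM. Adar, the enzyme that edits adenosine to inosine in double-stranded RNA and so keeps self RNA from the sensors, stood at 89.7, 81.3 and 88.3 TPM. Eif2ak2, which encodes the kinase PKR that halts translation on double-stranded RNA, stood at 24.4, 21.4 and 26.3 TPM. Adar and Eif2ak2 were both lowest in library 2.

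In the oligoadenylate synthetase family, whose products activate the RNase that cleaves cellular and viral RNA, Oas1a stood far above the rest in TPM. Oas1a was at 63.6, 55.6 and 56.9 TPM and Oas3 at 24.3, 19.0 and 20.9 TPM, both highest in library 1. Without length correction they were closer, with 2274 and 2056 expected counts on average. In the smaller gene table Oas3 had more counts (1240) than Oas1a (647). Oas2 was lowest, at 4.97, 4.39 and 4.64 TPM, and its log2 ratio to Oas1a was -3.65 ± 0.03. The synthetase-like genes had 13.8 ± 2.44 TPM for Oasl2 and 6.03 ± 1.13 TPM for Oasl1, which in mouse represses translation of Irf7. Both synthetase-like genes were highest in library 2. Over the 3 adjoining genes Oas2, Oas3 and Oas1a (chromosome 5, 120730333 to 120907521, mm10) the means spanned 12.6-fold.

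The IFIT genes encode tetratricopeptide proteins that bind viral RNA. Ifit1, which recognizes RNA without a methylated cap, stood at 42.9, 48.1 and 47.2 TPM. Ifit3 stood at 48.4, 43.2 and 45.95 TPM, and its log2 ratio to Ifit1 was -0.01 ± 0.17, the only 1 of the 26 ratios that did not exceed its spread in TPM. It was -0.63 in CPM and -1.90 in the smaller gene table, both beyond the spread. Ifit2 was lower than Ifit1, at 23.1, 22.9 and 25.2 TPM. Ifit3b, a near copy of Ifit3, was lowest at 8.66, 7.73 and 11.7 TPM, with library 3 above the others. The 4 genes lie together on chromosome 19 (34550694 to 34650009, mm10), and their levels spanned 4.92-fold within 99.3 kb.

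Among genes that restrict viruses at membranes, Rtp4 and Bst2 were above the IFITM genes. Rtp4, first described as a chaperone of receptors, stood at 145, 147 and 142 TPM. Bst2, which encodes tetherin and holds budding virions to the cell, stood at 109, 102 and 99.3 TPM. The IFITM proteins block fusion of virus with endosomes. Ifitm2 stood at 59.5, 58.8 and 56.3 TPM, Ifitm3 at 32.5, 32.3 and 26.4 TPM and Ifitm1 at 17.6, 19.4 and 17.0 TPM. The 3 IFITM ranges did not overlap, and all 5 genes of the group had their lowest TPM in library 3. Ifitm3 lay below Ifitm2 by a log2 ratio of -0.94 ± 0.13 and above Ifitm1 by 0.75 ± 0.13, and in counts of the smaller table the ratio to Ifitm2 was -0.11, within its spread.

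The GTPase members split into abundant immunity-related GTPases and scarce Mx genes. Ifi47, an immunity-related GTPase, was highest at 483, 474 and 478 TPM, with the libraries within 1.01-fold of each other in CPM. Iigp1 and Irgm2 belong to the same family, in which effector GTPases such as Iigp1 coat vacuoles of intracellular parasites and Irgm2 regulates them. Iigp1 stood at 219.5, 227 and 238 TPM and Irgm2 at 79.0, 72.3 and 89.3 TPM, both highest in library 3. Mx1, a dynamin-like GTPase that blocks influenza virus in the mouse nucleus, averaged 8.52 ± 0.928 TPM. Mx2, its relative, was lowest at 3.67, 2.80 and 1.93 TPM, and it was the only member annotated as a polymorphic pseudogene. Many laboratory strains carry disrupted Mx genes, and the strain is not stated here.

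Samhd1 dominated the genes of nucleotide metabolism and RNA decay. It encodes the hydrolase that lowers the deoxynucleotide pool and stood at 1017, 966 and 957 TPM. Isg20, an exonuclease that degrades single-stranded RNA, stood at 132, 134.5 and 132 TPM. Cmpk2, a mitochondrial nucleotide kinase, stood at 26.7, 29.8 and 22.5 TPM. Its neighbour Rsad2, which encodes viperin and makes a chain-terminating nucleotide, was lowest at 9.69, 5.77 and 7.96 TPM. Cmpk2 was highest and Rsad2 lowest in library 2, so their log2 ratio of -1.78 ± 0.51 (Rsad2 over Cmpk2) had the second widest spread of the ratios between members.

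The genes of the ADP-ribosylation and ubiquitin ligase group lay closest together in TPM of the whole gene. Parp9 and Dtx3l encode partners in 1 ubiquitin ligase complex, and Parp14 encodes a mono-ADP-ribosyltransferase. Parp9 stood at 112, 109.9 and 110.5 TPM, Parp14 at 81.9, 90.3 and 79.3 TPM and Dtx3l at 82.9, 80.7 and 86.8 TPM. Parp9 was above the others in every library, whereas the ranges of Parp14 and Dtx3l overlapped. The 3 genes adjoin on chromosome 16 (35832874 to 35972605, mm10) and their means spanned 1.33-fold. The log2 ratio of Parp14 to Parp9 was -0.40 ± 0.11, but -1.22 with protein-coding transcripts only, also beyond its spread. The order depended on length correction, since in CPM, which has none, the log2 ratio to Parp9 was 0.46 for Dtx3l and 0.14 for Parp14, and for Parp14 it was 0.24 in counts of the smaller table.

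The remaining 8 members hold the highest and the lowest mean TPM of the set. Ifi27l2a (ENSMUSG00000079017.3, chromosome 12, 103442167 to 103443680, minus strand, mm10), a gene for a small hydrophobic protein of the Ifi27 family, stood at 2417, 2600.5 and 2601 TPM, with library 1 below the others. It ranked 22nd of the protein-coding genes by mean TPM. Ifi27, which lies beside it, stood at 261, 268 and 256 TPM. The log2 ratio of Ifi27l2a to Ifi27 was 3.28 ± 0.07 in TPM. Without length correction it was 2.66 in CPM but -1.14 in counts of the smaller table. Sp100, a nuclear body protein that represses foreign DNA, stood at 736, 731 and 719.6 TPM.

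Ifi35, whose protein pairs with Nmi, stood at 162, 166 and 158 TPM, and Lgals3bp, a secreted glycoprotein that binds galectins, at 173, 149.8 and 154 TPM. Xaf1, an antagonist of the apoptosis inhibitor XIAP, stood at 114, 115 and 108 TPM, and Tor3a, a torsin ATPase of the endoplasmic reticulum, at 35.5, 33.9 and 35.2 TPM. Ifi44 had the lowest mean, with 1.17, 2.73 and 1.10 TPM, but it was not apart from Ifi204, which lay below it in library 2 (1.53 TPM). Lgals3bp was highest in library 1 and Ifi44 in library 2, while the libraries stayed close together for Ifi35 and Tor3a.

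Many members lie beside another, since 23 of them fall in 9 groups whose neighbours are at most 500 kb apart. How far neighbours differed varied between groups. The ratio of highest to lowest mean was 207 for Ifi203 and Ifi204 on chromosome 1, 9.70 for Ifi27l2a and Ifi27 on chromosome 12, and 3.37 for Cmpk2 and Rsad2 on the same chromosome. It was 12.6 for the 3 Oas genes, 4.92 for the IFIT genes, 3.24 for the 3 IFITM genes, 3.04 for Mx1 and Mx2, and 2.29 for Oasl2 and Oasl1. It was smallest, 1.33, for Parp9, Parp14 and Dtx3l. With protein-coding transcripts only, the log2 ratio of Oasl2 to Oasl1 turned to -1.19, within its spread. Under the same setting that of Parp14 to Parp9 widened to -1.22 and that of Ifi27l2a to Ifi27 widened to 4.47. That of Ifi203 to Ifi204 narrowed to 5.61, and all of these were beyond their spread.

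The transcript tables split each gene into annotated forms, and for most members the leading form was protein-coding. This held in 40 of 45 members by TPM and in 41 by expected counts. The protein-coding share of a member's TPM had a median of 88.5%, exceeded 90% in 22 members and was under 50% in 5. Those 5 were Mx2 (0%), Ifi203 (15.9%), Oasl2 (18.0%), Mx1 (21.6%) and Ifi27 (43.6%). Transcripts with a retained intron took over 10% of TPM in 13 members.

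**Figure D2:**
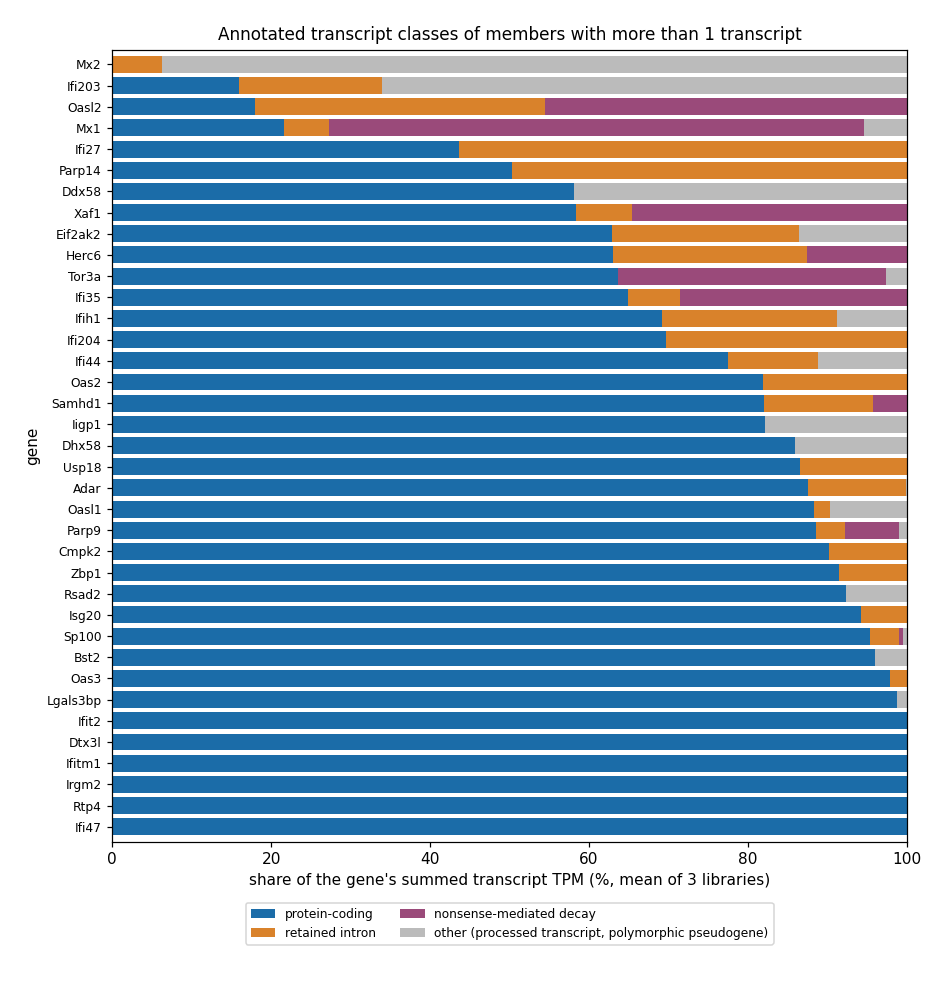
Share of each member's summed transcript TPM in 4 annotated classes (percent, mean of 3 libraries), for the 37 members with more than 1 transcript, sorted by protein-coding share. Most bars are mainly protein-coding, and the top 5 (Mx2, Ifi203, Oasl2, Mx1 and Ifi27) are not.

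The bars of transcript classes show where the gene-level values rest on forms annotated outside the protein-coding class. That class is a label, and a form outside it can still carry a coding sequence. The leading form of Mx2, annotated as a polymorphic pseudogene, has 656 residues and took 90.1% of TPM. In Mx1, a transcript marked for nonsense-mediated decay (Mx1-205) took 54.4% ± 12.6 of TPM, with 43.2%, 52.2% and 68.0% in libraries 1, 2 and 3. In Oasl2 the leading transcript was also of that class (Oasl2-205, 45.5% ± 1.78). The leading form of Ifi203 was a processed transcript of 444 bases (Ifi203-208), which took 60.0% ± 2.08 of TPM but 18.6% of expected counts, because TPM divides by length. By counts its leading form was Ifi203-207, with a retained intron, at 34.2%. Parp14 showed the same effect of length, since a retained-intron form of 580 bases took 48.6% ± 4.60 of TPM and 6.49% of counts, and the full coding form of 1817 residues took 50.3% and 92.4%.

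Ifi27 had a retained-intron form first by TPM (Ifi27-209, 42.2% ± 0.847) and a coding form first by counts (Ifi27-205, 38.4%). Tor3a, Xaf1 and Ifi35 had 33.6%, 34.5% and 28.5% of TPM in transcripts marked for nonsense-mediated decay. For Tor3a, the main form of that class (Tor3a-202) and the coding form Tor3a-207 both had 1750 bases and 385 residues. Each took 29.9% of TPM, with the same share in every library, so the quantification did not separate them. Zbp1 was divided by TPM between a form of 411 residues (47.4% ± 4.08) and a form of 187 residues (44.0% ± 4.05). By expected counts these forms, of 1989 and 770 bases, took 60.5% and 20.9%. Ddx58 had 56.2% ± 1.85 in its full coding form (Ddx58-201), and Samhd1 had most of its TPM in 1 coding form (Samhd1-206, 75.7%, 77.7% and 76.2% in libraries 1, 2 and 3).

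Adar is known to make a long form from an interferon-inducible promoter and a shorter form from constitutive promoters. The 2 annotated transcripts that encode over 1000 residues (Adar-203 with 1178 and Adar-201 with 1152) took 80.7%, 79.8% and 78.5% of Adar TPM in libraries 1, 2 and 3, and 89.5% of its expected counts. The 3 that encode at most 1000 residues took 6.54%, 7.77% and 9.20% of TPM. The long forms were thus ahead in every library, by 79.7% ± 1.13 against 7.83% ± 1.33. Transcripts of 1 gene share exons, so the split rests on how the authors' quantification assigned shared reads.

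Some members share sequence with other genes, and their values are less certain. In the leading transcript, over 40% of 50-base windows also occurred in another gene for Oas1a (57.6%, with Oas1g), Ifit3 (51.2%, with Ifit3b), Ifitm2 (48.5%, mostly with Gm45717) and Ifit3b (mostly with Ifit3). Oas1g was itself low, at 1.21 ± 0.389 TPM, and Gm45717 had 0 counts. The leading transcript of Ifi203 by TPM (Ifi203-208) shared 14.2% of its windows with Mndal, which stood at 405 ± 31.8 TPM. That transcript held 18.6% of the expected counts of Ifi203. Windows of a member's other transcripts were not searched. Ifi204 shared 30.2% of its windows, mostly with Ifi211 (5.30 ± 0.427 TPM), Herc6 23.8% with Gm45193 and Adar 20.3% with Chrnb2, and 17 members shared none. The authors' SD of the count over read assignment, as a share of the count, was largest for Ifi204 (5.88%) and Ifit3b (4.74%). Parp9 and Dtx3l overlap by 458 exonic bases on opposite strands, and Adar and Chrnb2 by 1365. No source used here gives the use of strand in counting, so how reads from such overlaps were assigned is not known.

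The libraries were then compared gene by gene, to see how far a member's share of reads moved between technical replicates. A chi-square test of equal shares (2 degrees of freedom, Benjamini-Hochberg over 15945 genes with at least 30 summed counts) called 30 of 45 members, or 66.7%, where 65.8% of all tested genes were called. The members' share is thus near that of all genes. Members called included Irgm2 (adjusted p = 2.56e-26), with 5265, 5132 and 7139 expected counts, highest in library 3 after scaling to library totals. Ifi27l2a (adjusted p = 4.86e-25) and Ifi203 (adjusted p = 4.16e-21) were lowest in library 1, with a spread beyond counting error of 5.27% and 7.09%. Over all members the median of that excess spread was 4.89%, against 6.60% for the 11338 genes in the same range of counts.

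Genes with few counts had the widest excess spread, led by Ifi44 (40.5%), Ifi204 (31.0%), Mx2 (21.4%) and Ifit3b (21.3%). The 15 members not called were Mx1, Ifi27, Ifit3, Dhx58, Oas2, Bst2, Zbp1, Rtp4, Isg20, Ifitm1, Tor3a, Parp9, Ifitm2, Ifih1 and Ifi47. With each chi-square scaled down by the overdispersion common to the tested genes (11.7), 0 of 45 members were called and 3 had an unadjusted p under 0.05, where 0.734% of all tested genes were called. The members showed no common direction, since the highest share fell in library 1 for 17 members, in library 2 for 17 and in library 3 for 11.

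**Figure D3:**
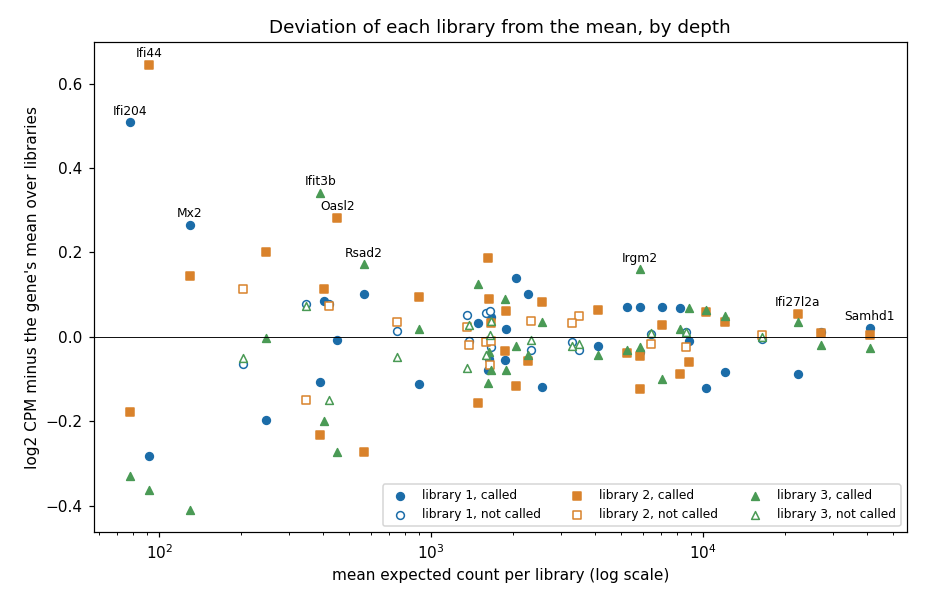
Deviation of each library from a member's mean (log2 CPM) against the member's mean expected count per library (log axis). Filled symbols are the 30 members called by the chi-square test, open symbols the 15 not called, and deviations beyond 0.4 in either direction occur only in Ifi44, Ifi204 and Mx2, at the low end of the counts.

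The plot of deviations against counts shows that spread narrowed as counts increased. The libraries held 31445344, 32612609 and 37259281 expected counts. Members ranged from 78.3 mean counts per library (Ifi204) to 41141 (Samhd1). No molecular identifiers that could mark PCR copies are named for these reads, so the test and the floors given for genes at 0 cover counting error only.

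The smaller gene table, a separate count of the same libraries, held all 45 members with at least 10 counts in each library, but with counts of other proportions. Samhd1 had the most counts in both tables, 4105 on average in the smaller table and 41141 expected counts in the larger. Ifi27l2a, with 22299.7 expected counts, came 29th by counts in the smaller table, with 621. As a share of the larger table's counts, members ran from 2.78% (Ifi27l2a) to 78.7% (Mx2), and no member exceeded 2.06 counts per base of transcript length (Sp100).

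The genes of the ligands that induce these genes were at or near 0 in the same libraries, apart from Ifng. Ifng, which encodes interferon gamma, was the only 1 of 21 interferon genes detected, at 8.91, 7.94 and 7.54 TPM. Another 16, among them most interferon alpha genes and the lambda genes Ifnl2 and Ifnl3, had 0 counts in all libraries, where 3 counts per library would have given between 0.141 and 0.278 TPM. Ifnb1, the interferon beta gene, was seen only in library 2 (5 counts), as was Ifna13 (4 counts), and Ifnk had 1 count, in library 1. Ifnz lay below 1 TPM throughout (0.373 ± 0.0252 TPM).

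The receptor genes were present apart from the interferon lambda receptor. Of 9 receptor and kinase genes, 8 were detected, led by Ifngr1 at 510.0, 505 and 502 TPM. Ifngr1 was 4.05-fold above Ifnar1 (125 ± 5.08 TPM), and Ifnar2 (92.4 ± 7.74 TPM) had a log2 ratio to Ifnar1 of -0.44 ± 0.17. That ratio was within its spread without library 1 (-0.38) or library 3 (-0.40), and with protein-coding transcripts only it turned to 0.16, also within the spread. The partner chain Ifngr2 was lower than these, at 28.9 ± 3.14 TPM. Jak1 stood at 436 ± 14.0 TPM, Il10rb at 109.9 ± 4.71 TPM, Jak2 at 76.7 ± 1.33 TPM and Tyk2 at 63.5 ± 3.81 TPM, whereas Ifnlr1 had at most 3 counts in any library.

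Among transcription factor genes, Stat2 and Irf9 of the type I complex were detected in every library. Stat2 stood at 79.9, 69.7 and 79.0 TPM, lowest in library 2. Irf9, the DNA-binding part of the complex, stood at 178, 181 and 165 TPM, and its log2 ratio to Stat2 was 1.20 ± 0.16. Without length correction that ratio was 0.67 in CPM but -0.27 in counts of the smaller table. Irf1 had 384 ± 16.8 TPM, Irf2 168 ± 19.1 TPM, Irf3 165 ± 2.54 TPM, Irf7 104 ± 8.60 TPM, Irf8 56.0 ± 3.09 TPM and Irf5 32.2 ± 1.93 TPM. Irf3 and Irf7 are the factors that switch on interferon genes after sensing.

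**Figure D4:**
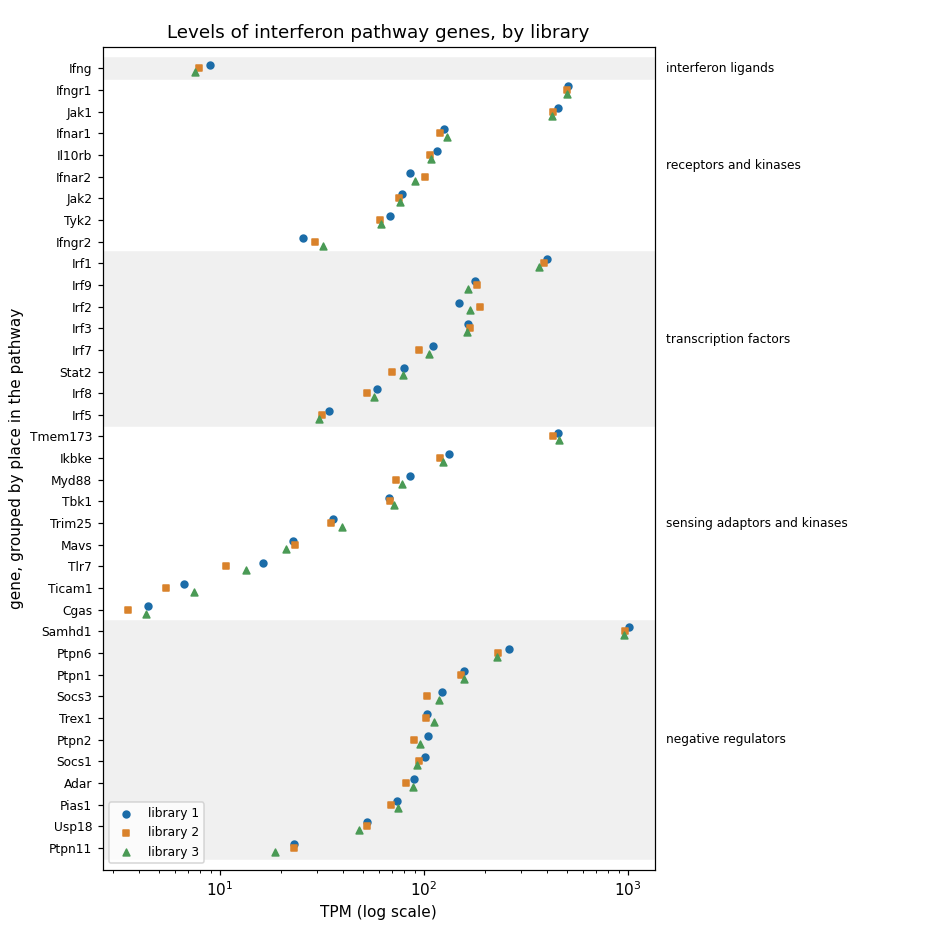
Level of detected genes from 5 interferon pathway lists in libraries 1, 2 and 3 (TPM, log axis), 1 symbol per library. Samhd1 is the highest gene plotted, at 979.9 TPM on average, the only detected ligand, Ifng, is below 10 TPM, and Cgas is lowest at 4.10 TPM.

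The plot of pathway genes also holds the steps before and after interferon. Of 11 sensing adaptor and kinase genes found, 9 were detected. Tmem173, which encodes STING, was highest at 452, 429 and 457 TPM, while Cgas, the enzyme that makes its activating messenger, was lowest of those detected, at 4.43, 3.54 and 4.32 TPM. Ikbke had 125 ± 6.55 TPM, Myd88 79.0 ± 6.51 TPM, Tbk1 69.0 ± 2.07 TPM, Trim25 36.8 ± 2.32 TPM, Mavs 22.4 ± 1.25 TPM, Tlr7 13.4 ± 2.77 TPM and Ticam1 6.70, 5.43 and 7.45 TPM in libraries 1, 2 and 3. Tlr3 and Tlr9 were not detected.

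All 11 negative regulators were detected, 3 of which (Usp18, Adar and Samhd1) are members already described. The phosphatase genes Ptpn6, Ptpn1, Ptpn2 and Ptpn11 stood at 239.6 ± 19.7, 155 ± 3.40, 96.5 ± 7.31 and 21.5 ± 2.58 TPM. The receptor inhibitors Socs3 and Socs1 stood at 115 ± 9.89 and 95.9 ± 4.31 TPM, the exonuclease gene Trex1 at 106 ± 5.03 TPM and the signalling inhibitor Pias1 at 72.3 ± 2.99 TPM.

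The label of the cells was checked against marker genes. All 10 Treg and T cell markers were detected, with Foxp3 at 138, 133 and 134 TPM, and their summed level ran from 8936 to 9022 TPM. Markers of other cells were also present. Summed TPM was 36.7 to 50.9 for 5 B cell genes (4 detected), 61.1 to 63.0 for 8 macrophage genes (6 detected), 2.68 to 3.15 for 5 conventional dendritic cell genes (1 detected), 27.8 to 30.1 for 6 CD8 T and NK cell genes (5 detected) and 0.73 to 1.35 for 5 stromal and endothelial genes (none detected). The 8 plasmacytoid dendritic cell genes summed to 144 to 162 TPM, of which Bst2, itself a member, gave 99.3 to 109 TPM, and 4 were detected. The others detected were Pacsin1 (31.7 ± 3.26 TPM), Ccr9 (11.4 ± 1.62 TPM) and Tcf4 (3.57 ± 0.423 TPM), while Siglech had 0.997 ± 0.101 TPM and Klk1 had 0 counts.

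Library 1 had the highest summed levels of erythroid and granulocyte markers. Erythroid markers summed to 889 TPM in library 1, against 636 and 713 TPM in libraries 2 and 3, and granulocyte markers to 25.5 TPM, against 2.36 and 3.17 TPM. Among members, to give examples, Ifi27l2a and Ifi203 were lower and Ifi204, Lgals3bp and Oas1a higher in library 1 than in the others. By share of counts, 17 members were highest and 13 lowest in library 1, so the members moved in both directions. The part of these other cells in the members' levels or in their differences between libraries was not tested.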

How the data were processed

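Polyadenylated RNA of 1 biosample was measured in 3 technical libraries. Per the sample notes and the file headers, the authors made the larger gene tables and the transcript tables on mm10 with GENCODE M21, and they deposited an expected count, TPM and FPKM per gene or transcript, with a posterior SD of the count over read assignment. The smaller gene tables deposited by the authors hold a whole-number count per gene on mm10 with GENCODE M4. No aligner, quantifier, rule for shared reads or use of strand is named in the sources used here, and the columns carry the names RSEM uses. No columns of unmapped samples were found (0).

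The members, their roles and all lists were chosen with earlier results of these data known. All 45 members are named, with a value in every library for those with a mean of at least 20 TPM and for the highest and lowest of each role. The chi-square test of library variation ran on expected counts after rounding to whole numbers and was checked on simulated counts (threshold 0.05). The outcome of that check is not given here. No conclusion is drawn from it for these libraries, whose shared overdispersion was 11.7. With a single group, no contrast by edgeR was possible, so edgeR 4.0.16 and DESeq2 1.42.0 (R 4.3.3) gave scaling factors only. Floors are 3 counts per library, averaged over libraries. Isoforms are shares of a gene's summed transcript TPM. Levels between genes were compared as TPM, per length. The other tools were Python 3.11.15, pandas 2.3.3, numpy 2.4.6, scipy 1.17.1 and matplotlib 3.10.9. Depth was 31445344 to 37259281 expected counts per library and 8758421 to 9555924 counts in the smaller tables. The alternatives were other units, scalings, count minimums, coding transcripts only, the smaller table and leaving out each library. One gene of the transcription factor list is not reported here.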

Additional observations from a re-analysis of the deposited data

How the results depend on the processing

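All 45 members were detected under each alternative run except a minimum of 5 TPM, which left 41. The median of the members (56.1 TPM) was 35.2 in FPKM, 53.5 in CPM (counts scaled to the library total, with no length correction) and 47.4 TPM with protein-coding transcripts only, an alternative chosen after seeing the data; leaving out each library gave 55.9 to 56.4. Of the 26 gene ratios, 22 to 25 exceeded their spread under every alternative. On the log2 scale, CPM reversed Dtx3l over Parp9 (0.46), Parp14 over Parp9 (0.14) and Isg15 over Usp18 (-0.88). The smaller table reversed Ifi27l2a over Ifi27 (-1.14), Parp14 over Parp9 (0.24), Isg15 over Usp18 (-0.84) and Irf9 over Stat2 (-0.27). Protein-coding transcripts only reversed Oasl2 over Oasl1 (-1.19) and Ifnar2 over Ifnar1 (0.16), both within the spread, and gave no value for Mx2 over Mx1. CPM differs from TPM by transcript length, and counts of the smaller table also have no length correction. The causes of the reversals outside CPM were not tested. Library variation, called in 30 members, was called in 0 after division by the shared overdispersion and in 13 in the smaller table (28.9% of members, 33.5% of genes). It was called in 29 with no minimum count (64.4% of members, 41.7% of genes), in 29 with at least 300 summed counts (67.4% of members, 71.8% of genes) and in 28 under either other scaling (62.2% of members, 65.6% or 65.7% of genes). Leaving out 1 library gave 18 to 21, with 40% of members and 48.6% of genes without library 1, 44.4% and 41.1% without library 2, and 46.7% of members and 6656 of 14787 genes without library 3. The motif was present in 21 members with a spacer of 1 to 3 bases (9.91% of genes) and in 11 within the 250 bases before the start (3.46% of genes). No paired analysis was possible because the labels gave a single group. The members with the fewest counts, Ifi204, Ifi44 and Mx2, had coefficients of variation of 35.0%, 55.3% and 31.1% in TPM. Their spread beyond counting error was 31.0%, 40.5% and 21.4%, and its cause was not tested.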
